A study of Mus musculus with 2 samples.

Results

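The loci of 7 genes of thymidine and deoxynucleotide metabolism were examined on 2 methylated DNA immunoprecipitation (MeDIP) arrays, 1 of untreated mouse embryonic fibroblasts and 1 of fibroblasts given thymidine. Each gene was read by all genomic probes whose start, in the mm9 build used by the scanner files, lay in a window set around Tk1, Tyms, Tymp, Rrm1, Rrm2, Dut or Samhd1. Within the windows, probes were taken by position only and by no measured value. The genes themselves were chosen with earlier results of these data known. It took 72 of the 174638 genomic probes, 11 at Tk1, 4 at Tyms, 26 at Tymp, 7 at Rrm1, 9 at Rrm2, 8 at Dut and 7 at Samhd1.

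Both groups were C57BL/6 fibroblasts from E14.5 embryos. Per the labels, magnetic beads first removed possible blood progenitors by the surface proteins CD31, c-Kit, CD45 and CD41, and what remained was grown on feeder fibroblasts treated with mitomycin. The untreated group had no thymidine, and the other group had 100 µM thymidine for 2 days. The treated sample is also described as sorted by CD45, a protein of blood cells, and whether feeder cells were removed before DNA was purified is not stated. The input of the treated array is named as untreated fibroblasts in one label and as thymidine-treated in another, so its culture is not settled. The arrays measure DNA and carry no marker that would check the cell type. Each group is 1 array, so no difference below has a replicate check and no p-value is given. Slide, scan, sort and treatment cannot be told apart.

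The cell obtains thymidine nucleotides by salvage and by synthesis. Thymidine kinase (Tk1) phosphorylates thymidine taken up from outside, and thymidine phosphorylase (Tymp) cleaves it. Thymidylate synthase (Tyms) makes the same nucleotide from deoxyuridine monophosphate, which dUTPase (Dut) supplies by breaking down dUTP. Ribonucleotide reductase, built from the large subunit Rrm1 and the small subunit Rrm2, makes the deoxynucleotides, and Samhd1 degrades deoxynucleoside triphosphates. Excess thymidine is known to raise the thymidine triphosphate pool, which restrains ribonucleotide reductase and halts cells in S phase. In MeDIP an antibody against 5-methylcytosine, a base found in mammals mainly at CG dinucleotides, pulls down methylated fragments, and CG-rich promoters of housekeeping genes are usually little methylated.

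The promoters differ in how many CG dinucleotides the antibody could bind around, so 4 of them are shown, with each CG in capitals and the other bases in lower case. They are RefSeq sequences of the GRCm38.p6 build, 250 bases before to 50 bases after the gene's start, written 5′ to 3′ on the gene's strand. That build is not the one of the probes, and its coordinates cannot be set against theirs. Tk1 lies on the minus strand at chr11:117825965-117826264, Rrm2 on the plus strand at chr12:24708004-24708303, Dut on the plus strand at chr2:125247265-125247564 and Samhd1 on the minus strand at chr2:157135047-157135346.
Tk1: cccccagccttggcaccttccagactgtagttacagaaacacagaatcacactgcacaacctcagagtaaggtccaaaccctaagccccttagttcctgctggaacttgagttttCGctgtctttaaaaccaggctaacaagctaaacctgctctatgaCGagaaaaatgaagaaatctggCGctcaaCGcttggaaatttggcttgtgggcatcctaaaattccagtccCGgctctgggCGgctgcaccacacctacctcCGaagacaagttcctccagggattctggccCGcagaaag
Rrm2: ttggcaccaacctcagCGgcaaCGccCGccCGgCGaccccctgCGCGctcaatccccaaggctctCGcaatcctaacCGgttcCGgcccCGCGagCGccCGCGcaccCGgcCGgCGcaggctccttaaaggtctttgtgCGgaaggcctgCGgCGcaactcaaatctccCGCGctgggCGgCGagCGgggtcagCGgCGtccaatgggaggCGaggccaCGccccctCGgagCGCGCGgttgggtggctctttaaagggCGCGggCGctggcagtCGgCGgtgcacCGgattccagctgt
Dut: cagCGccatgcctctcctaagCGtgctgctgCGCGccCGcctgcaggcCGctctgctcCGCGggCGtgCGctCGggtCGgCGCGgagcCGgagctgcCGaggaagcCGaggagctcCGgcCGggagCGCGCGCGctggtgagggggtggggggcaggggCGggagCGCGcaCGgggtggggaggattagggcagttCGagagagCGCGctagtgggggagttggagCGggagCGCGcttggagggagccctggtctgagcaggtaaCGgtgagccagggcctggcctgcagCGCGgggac
Samhd1: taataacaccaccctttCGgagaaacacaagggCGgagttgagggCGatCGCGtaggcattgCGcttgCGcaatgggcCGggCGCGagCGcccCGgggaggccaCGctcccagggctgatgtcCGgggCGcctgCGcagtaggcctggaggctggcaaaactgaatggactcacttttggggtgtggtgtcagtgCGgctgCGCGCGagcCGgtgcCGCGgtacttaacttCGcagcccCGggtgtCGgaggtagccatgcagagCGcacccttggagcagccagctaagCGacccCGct
The motif searched was CG, which reads the same on both strands. The Rrm2 promoter held 40, and 3.91% of all 32851 RefSeq promoters of this length held as many. Dut held 36 (6.23% held as many) and Samhd1 held 29 (12.9%). Tk1 held only 8, Tyms 9, Tymp 10 and Rrm1 9, against a median of 7 over all promoters. The 7 genes thus fall into 3 with CG-dense and 4 with ordinary promoters by this count. All 7 genes had a RefSeq promoter.

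Probes were 45 to 60 bases long, with a median spacing of 206.5 bp at these loci, and DNA fragments of 200 to 1000 bp were precipitated, so neighbouring probes can report on the same fragments. The probes formed 8 tiled stretches, called tiles, in which starts lay less than 1000 bp apart. The value of a probe is the log2 ratio of precipitate (Cy5) to input (Cy3), centred on the median of the probes kept on that array, so 0 is the level of the median probe. A probe was kept if it carried no outlier flag and both arrays read its input as well above background, which held for 65 of the 72 (and for 81.6% of all genomic probes). The 7 others, 3 at Dut and 1 each at Tyms, Tymp, Rrm2 and Samhd1, failed for dim input. Of the 65 kept probes, 60 also had precipitate well above background on both arrays, as had 82.8% of all kept probes. Ratios of neighbouring kept member probes under 300 bp apart (49 pairs) correlated at r = -0.0045 untreated and -0.0051 with thymidine. Over all such pairs r was 0.22 on each array. For the differences between arrays r was 0.14 at the members and 0.04 over all pairs. Where the precipitate of a kept probe was not well above background on either array, its ratio is a bound on a low value and no fold is given. Having 1 array a group limits the precision. Control probes spotted repeatedly had a median SD between spots of 0.14 for the difference between arrays, which covers spots within these arrays only.

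At Tk1, the salvage kinase, the 11 probes ran from 117685944 to 117688596 on chromosome 11. Their log2 ratios had a median of -0.0045 untreated and -0.10 with thymidine, and the median probe difference was -0.10 (SD over probes 0.47, n = 11 probes), with 7 probes lower and 4 higher after thymidine. The highest probe on both arrays was the first, at 117685944, with 0.88 untreated and 0.64 with thymidine. The probe at 117686457 had a ratio of 0.35 untreated and -0.08 with thymidine, and the probe at 117687507 had -0.0045 and -0.41. These 2 probes had the lowest differences of the locus, -0.44 and -0.41. A single probe at 117686905 stood far below its neighbours on both arrays, at -3.68 and -2.39, with precipitate not well above background on either. The probe 245 bp before it read -0.24 and -0.18, and the probe 196 bp after it read -0.42 and -0.29. Its precipitate signal was nearly equal on both arrays (difference -0.04), while its input signal was lower on the thymidine array (difference -1.26). Without that probe the SD of the Tk1 differences over probes was 0.19 in place of 0.47, and the median stayed at -0.10. In RefSeq Afmid overlaps Tk1, so the tile cannot be given to Tk1 alone.

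Tymp, the phosphorylase that cleaves thymidine, had 2 tiles on chromosome 15, a lower one of 9 kept probes from 89203753 to 89205436 and an upper one of 16 kept probes from 89206983 to 89210712. RefSeq places Ncaph2 and Sco2 across Tymp, and the tiles may belong to those genes as well. The lower tile had a median ratio of 0.54 untreated and 0.44 with thymidine and a median difference of -0.03 (SD 0.32, n = 9 probes). Of all 21518 tiled regions of the array, 94.3% had a lower median ratio than this tile untreated, and 89.9% with thymidine. One of its probes, at 89205189, read -0.56 untreated and 0.19 with thymidine, a difference of 0.75 against a scanner error of 0.31. The other 8 probes of the lower tile differed by -0.24 to 0.43.

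The upper Tymp tile was the member tile with the highest median difference. Its median ratio was 0.23 untreated and 0.38 with thymidine, and the median probe difference was 0.27 (SD 0.41, n = 16 probes), higher in 12 of 16 probes. Of all tiled regions 88.6% had a lower median difference. Its highest probe, at 89207459, had a ratio of 1.34 untreated and 1.88 with thymidine. The probe at 89208498 went from -0.17 to 0.39 between the arrays, the one at 89206983 from -0.43 to 0.07, and the one at 89208714 from 0.72 to 1.20. These 4 probes, whose channels were both well above background, differed by 0.49 to 0.57. The probe at 89209394 (-1.37 and -0.85), with both channels well above background too, differed by 0.52. Its precipitate was lower with thymidine (-0.45), and its input more so (-0.90). Of the 4 lower probes with both channels well above background, those at 89207649 and 89207881 differed most, by -0.35 and -0.22. Probes at 89207242 (-3.18 and -1.90) and 89208085 (-2.20 and -1.50) were low on both arrays, with precipitate not well above background. Among the 14 probes of this tile with both channels well above background the median difference was 0.16 (SD 0.31), higher in 10 of 14, so its size rests partly on the dim probes. The median input difference of the tile was -0.04 and the median precipitate difference was 0.13, on centred single channels.

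**Figure D1:**
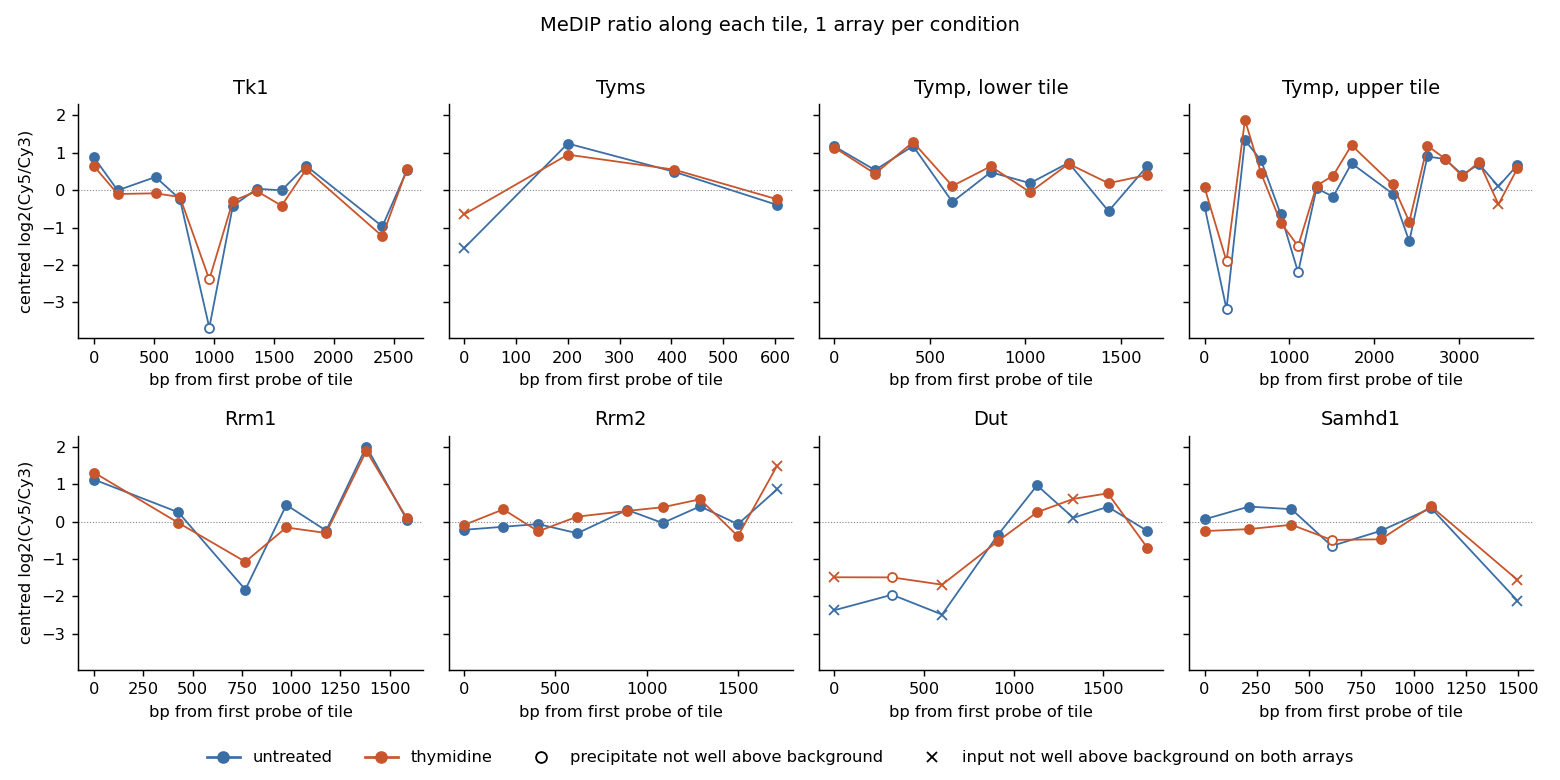
Centred log2 ratio of precipitate to input (vertical axis) along the probes of the 8 tiles, for the untreated and the thymidine array. The horizontal axis is the distance in bp from the first probe of each tile, and the lower and upper Tymp tiles are drawn apart. The lines of both arrays run close together at most probes, and the single low probe of Tk1 reads -3.68 untreated and -2.39 with thymidine.

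Tyms, which makes thymidylate from deoxyuridylate, had 3 kept probes on chromosome 5 in a tile from 30399677 to 30400330. Read in order, they were 1.25, 0.49 and -0.39 untreated and 0.95, 0.55 and -0.24 with thymidine. The median ratio was thus 0.49 and 0.55, and the median difference 0.06 (SD 0.24, n = 3 probes). That difference is smaller than the spread between single control spots, which is not the error of a median over probes. The level lay above that of 92.6% of tiled regions untreated and 94.4% with thymidine, the highest rank among the member tiles on the thymidine array. That level rests on the 3 kept probes. When the dim first probe was counted too, the median ratio was 0.05 untreated and 0.15 with thymidine.

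Dut, which removes dUTP and supplies the substrate of Tyms, had 8 probes on chromosome 2 from 125071931 to 125073721, of which 5 were kept. Its 3 first probes, at 125071931, 125072253 and 125072532, were low on both arrays, at -2.37, -1.96 and -2.49 untreated and -1.49, -1.49 and -1.69 with thymidine. Precipitate was well above background at none of them. Only the one at 125072253 was kept, as the input of the others was not well above background with thymidine. From there the ratios stood higher. The probe at 125073062 read 0.97 untreated and 0.25 with thymidine, which gives the lowest difference of any kept member probe, -0.72. The probe at 125073457 had the opposite order, 0.40 and 0.76, and the last, at 125073677, read -0.25 and -0.70. The median difference of the 5 kept probes was -0.17 (SD 0.51), with 3 lower and 2 higher, and the sign turned to 0.41 when all 8 probes were counted and to 0.09 when the precipitate channel was used alone. Of the 4 probes with both channels well above background 3 were lower, with a median of -0.31. The locus therefore has no settled direction, and its spread over probes exceeded its median.

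Rrm1, the large subunit of ribonucleotide reductase, had 7 probes on chromosome 7 from 109588921 to 109590553, all with both channels well above background. Its probe at 109590303 had the highest ratio of all member probes, 2.01 untreated and 1.89 with thymidine. The probe at 109589689, in the middle of the tile, read -1.82 and -1.07. The levels of this locus therefore ran over a wide range on both arrays. The median ratio was 0.25 untreated and -0.03 with thymidine, but the median probe difference was only -0.06 (SD 0.42, n = 7 probes), with 4 lower and 3 higher, and it turned to 0.06 in the precipitate channel alone. The low probe at 109589689 differed by 0.74 and the probe at 109589897, which read 0.45 and -0.15, by -0.60.

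Rrm2, the small subunit, whose abundance limits the enzyme through the cell cycle, had even levels along its tile. Its 8 kept probes on chromosome 12, from 25391824 to 25393367, lay between -0.31 and 0.41 untreated and between -0.39 and 0.60 with thymidine. The SD along the tile was 0.25 untreated and 0.34 with thymidine, and 1.62% and 6.01% of tiled regions had a lower SD, against region medians of 0.77 and 0.69. Among the member tiles that was the lowest SD untreated, and with thymidine Samhd1 was slightly lower, at 0.33. The median ratio was -0.07 untreated and 0.21 with thymidine, and the median difference was 0.16 (SD 0.30, n = 8 probes), higher in 5 of 8. Probes at 25392038 (-0.14 and 0.33), 25392444 (-0.31 and 0.14) and 25392911 (-0.04 and 0.39) were higher by 0.42 to 0.47, and the probe at 25393323 was lower, -0.07 and -0.39. The sign turned to -0.06 when the precipitate channel was used alone. Of tiled regions, 71.7% had a lower median difference.

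Samhd1, the enzyme that degrades deoxynucleoside triphosphates, had 6 kept probes on chromosome 2 from 156960466 to 156961597. The ratios read in order were 0.06, 0.40, 0.33, -0.65, -0.24 and 0.36 untreated and -0.25, -0.20, -0.08, -0.49, -0.47 and 0.41 with thymidine. The 3 first probes were all above 0 untreated and below 0 with thymidine, and the last kept probe was nearly equal on both arrays. The fourth, at 156961074, had precipitate not well above background. The median ratio was 0.20 untreated and -0.23 with thymidine, and the median difference was -0.27 (SD 0.29), lower in 4 of 6 probes. Only 2.31% of the 21518 tiled regions had a lower median difference, and with thymidine 26.2% had a lower level against 70.8% untreated. Of the 5 probes with both channels well above background 4 were lower, with a median of -0.32, where 45.3% of all such probes were below 0. The input was higher with thymidine at 6 of 6 kept probes (median 0.13) and the precipitate was lower at 4 of 6 (median -0.13). The part of the input in this difference was not tested beyond these values. In the authors' deposited table the median difference was -0.34 and all 6 probes were lower, where 58.2% of all kept probes were. That table differed by -0.13 and -0.22 at the 2 probes whose ratios here were higher, by 0.16 and 0.04. Whether it was smoothed over neighbouring probes is not known, so its 6 values may not be separate readings.

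**Figure D2:**
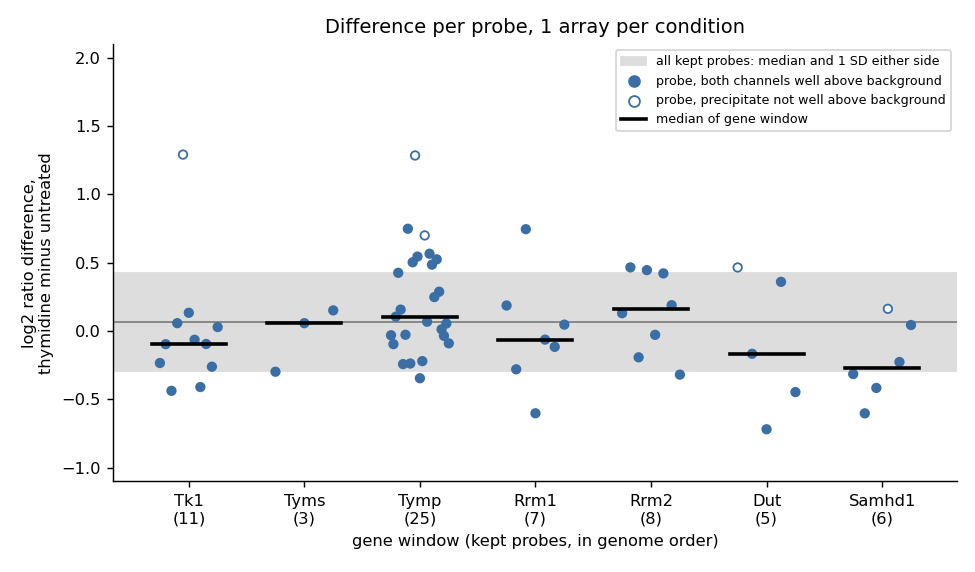
Difference in centred log2 ratio, thymidine minus untreated (vertical axis), for the kept probes of each gene (horizontal axis), with the gene's median marked. The medians run from -0.27 at Samhd1 to 0.16 at Rrm2, and every gene has probes on both sides of 0.

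Counted probe by probe, 9 of the 65 kept member probes (13.8%) were at least 0.5 higher after thymidine, where 11.0% of all 142569 kept probes were. A further 3 (4.62%) were at least 0.5 lower, against 4.43% of all. Both shares are near the background. Counting only the 60 probes with both channels well above background, 6 were higher and 3 lower by that much, where 7.11% and 4.34% of all such probes were. The 9 higher probes were 7 at Tymp, 1 at Tk1 and 1 at Rrm1, and at 3 of them, at 117686905, 89207242 and 89208085, the precipitate was not well above background and the size of the difference is not settled. The 3 lower probes were at Dut, Samhd1 and Rrm1. Above 0 stood 34 member probes and below 0 stood 31, while 57.5% of all kept probes were above 0 and 42.5% below. The median member difference was 0.03 (SD 0.40), and that of all kept probes was 0.07 (SD 0.36). Of the 60 probes with both channels well above background, 0 were higher or lower by at least 1, where 0.191% of all such probes were that much higher and 0.0457% lower. Of the same 60, 1 differed by more than 2 scanner errors, the Tymp probe at 89205189, and 3.21% of all such probes did.

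A tile was counted as shifted if its median differed by 0.5 or more and 80% or more of its probes lay on one side of 0. Of the 8 tiles, 0 were shifted in either direction, where 0.706% of all tiled regions were higher and 0.0558% lower by that rule. The median differences over all regions centred on 0.06 with an SD of 0.17. Samhd1 was the lowest of the member tiles, followed by Dut, with 8.32% of regions below it, Tk1 with 16.8%, Rrm1 with 21.8% and the lower Tymp tile with 28.8%. Tyms stood near the middle at 48.4%. The order of the 8 tiles is not resolved, since neighbours in it differ by less than the spread over their probes. This includes the places of Samhd1 as lowest and of the upper Tymp tile as highest.

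Counts of high and low probes were similar on both arrays. A ratio of at least 1, meaning at least 2 times the median probe, was found at 6 member probes untreated and 7 with thymidine, against 7.17% and 7.60% of all kept probes. These were 1 Tyms, 3 Tymp and 2 Rrm1 probes untreated and 5 Tymp and 2 Rrm1 probes with thymidine. A ratio of -1 or less was found at 6 member probes on each array, where 15.0% of all probes were that low untreated and 11.3% with thymidine. Over the 65 probes the untreated and thymidine ratios correlated at r = 0.92, against 0.93 over all kept probes; the probes of each set share arrays and inputs. The order of the tiles by level untreated began with the lower Tymp tile (0.54) and Tyms (0.49), then Rrm1 (0.25), the upper Tymp tile (0.23) and Samhd1 (0.20), and ended with Tk1 (-0.0045), Rrm2 (-0.07) and Dut (-0.25). Each tile's SD over its probes was larger than the gap to its neighbours in this order. Where the start sites lie among these probes was not analysed here, and nor was the exon, intron or promoter each probe falls in.

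**Figure D3:**
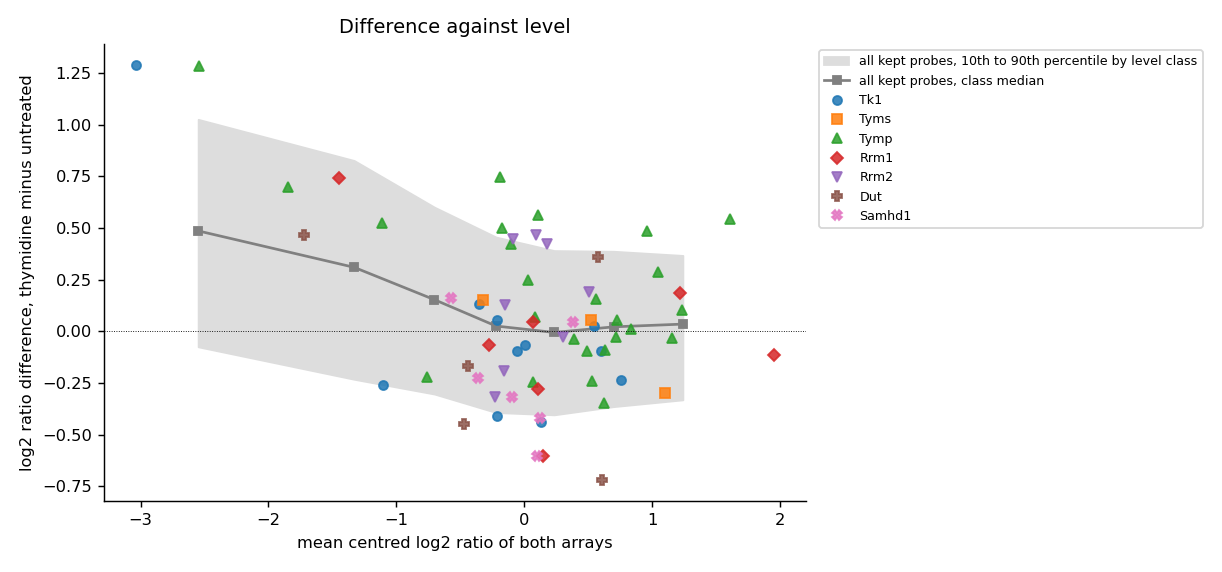
Difference of each kept member probe (vertical axis, log2 ratio, thymidine minus untreated) against its mean centred log2 ratio over both arrays (horizontal axis). The line is the median and the band the 10th to 90th percentile of all kept probes in classes of level. The highest points, at Tk1 and Tymp, are low-ratio probes whose precipitate was not well above background.

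The differences moved with the level of the probe. Of the 7 member probes with a mean ratio of -1 or less, 6 were higher after thymidine, with a median difference of 0.70, and 80.8% of all such probes were higher. Only 3 of these 7 had precipitate well above background on both arrays. Their median input difference was -0.64 and their median precipitate difference -0.01. Among the 51 member probes of middle level 24 were higher, with a median difference of -0.03, where 54.0% of all middle probes were higher. Among the 7 with a mean ratio of 1 or more 4 were higher and 3 lower, with a median of 0.10, where 44.9% of all such probes were lower.

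The input channel moved with the differences too. Over the 65 probes the difference in ratio correlated with the difference of the input signal at r = -0.89 and with that of the precipitate signal at r = 0.52, against -0.79 and 0.59 over all kept probes. The ratio is built from both channels, so some correlation of this kind follows from the arithmetic, and no p is given. At the 9 probes at least 0.5 higher, the input was lower with thymidine at all 9 and the precipitate higher at 6. At the 3 at least 0.5 lower, the input was higher and the precipitate lower at all 3. Both sets were picked by the ratio difference, which holds the input, so these counts are partly fixed by the choice. The same counts over all probes were not made. By gene, the median input difference ran from -0.15 at Rrm2 to 0.33 at Dut, and the median precipitate difference from -0.13 at Samhd1 to 0.14 at Tyms. The share of the input in each gene's value was not tested beyond these numbers.

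**Figure D4:**
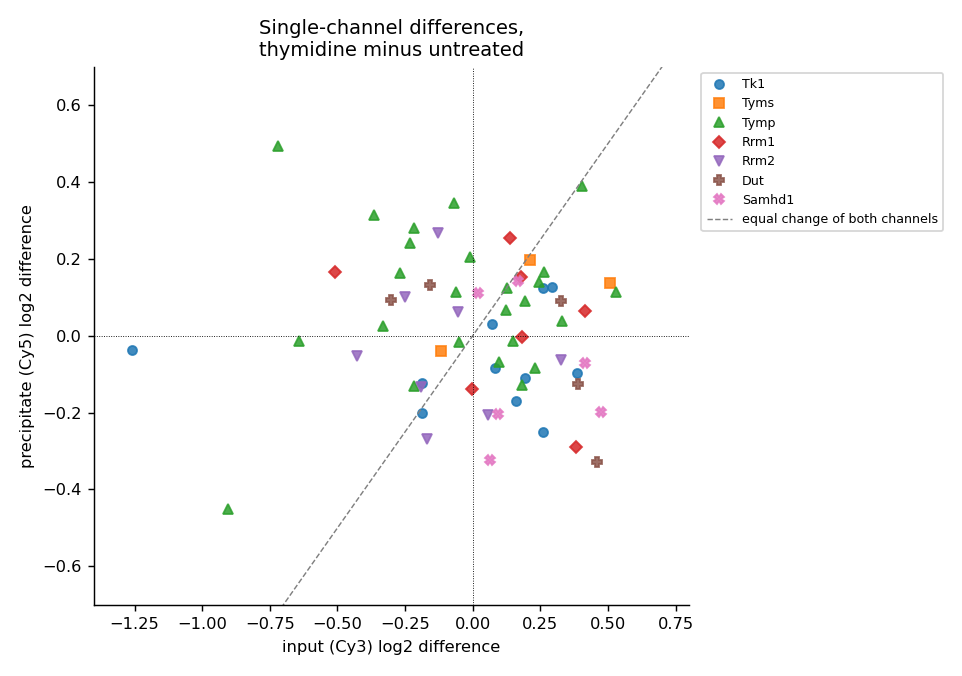
Centred log2 difference of the precipitate (Cy5, vertical axis) against that of the input (Cy3, horizontal axis) at the kept member probes, thymidine minus untreated. Points above the dashed line have a higher ratio with thymidine. Some points just below it do too, because each channel and the ratio were centred separately. Samhd1 probes all lie to the right of 0 on the input axis, and the Tk1 probe farthest to the left has an input difference of -1.26.

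Other settings moved some genes and left others in place. The Tk1 and Samhd1 medians were negative under all 10 alternatives tried, at -0.30 to -0.06 and -0.34 to -0.13. The Tyms and Tymp medians were positive under all 10, at 0.02 to 0.15 and 0.0023 to 0.15. All settings process the same arrays, so a steady sign is not a replicate check. In every setting except the authors' table, the Tk1 median was smaller in size than the spread between control spots (0.14). That spread is between single spots in the main setting, so it is not the error of a median over probes. The median of all kept probes was itself above 0 in the main setting (0.07). Relative to the median of all probes in each setting, Tk1 (-0.26 to -0.094) and Samhd1 (-0.35 to -0.15) were still negative in the main setting and the 9 alternatives that give this value. Tyms was not above that median in the main setting (-0.0092) or with centring on all genomic probes, and Tymp was not without a dim filter (-0.0025) or with normexp (-0.0081). Rrm1, Rrm2 and Dut changed sign under at least 1 setting, as given above. In the authors' deposited table the Tk1 difference was larger in size, with medians of 0.06 untreated and -0.29 with thymidine. Its median difference there was -0.30, lower at 9 of 11 probes, where 58.2% of all kept probes were lower.

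**Figure D5:**
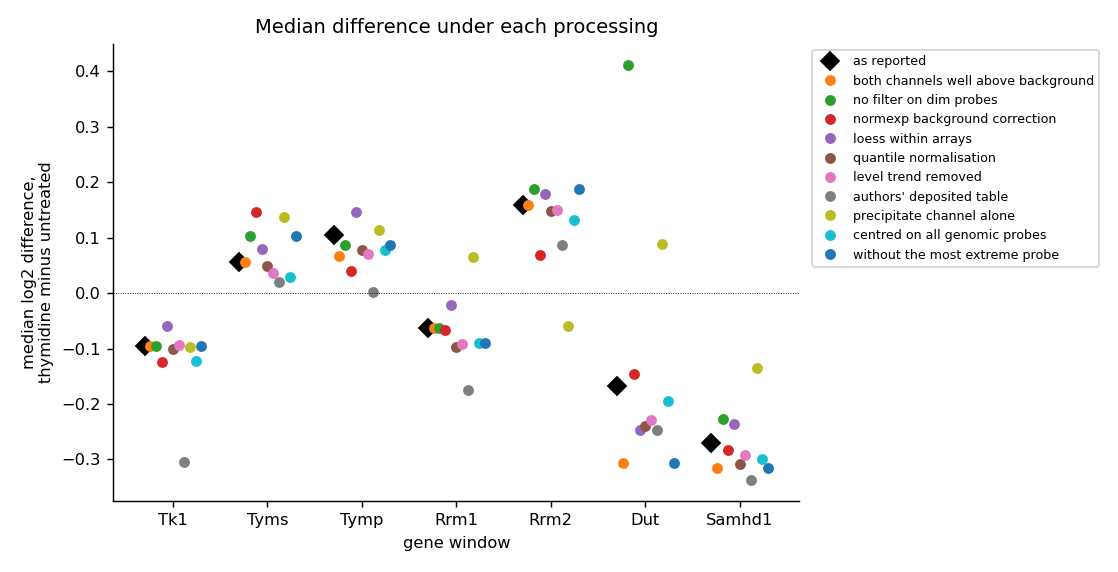
Median difference of each gene (log2 ratio, thymidine minus untreated) under the main processing and the 10 alternatives. Tk1 and Samhd1 lie below 0 in every one and Dut runs from -0.31 to 0.41. Tyms and Tymp lie above 0 in every one, but not always above the median of all probes, which was 0.07 in the main setting.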

How the data were processed

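MeDIP was measured on 2 two-colour Agilent arrays, 1 per group. Per the labels, Cy5 marked the precipitate and Cy3 the input on both, so dye bias was not balanced. Per the file headers, Feature Extraction 11.0.1.1 made the processed intensity values on an mm9 grid by background subtraction and linear dye scaling. Errors of the log10 ratios come from that software, per the file headers. The authors' deposited table holds log ratios, taken as log2 from their slope against the scanner values. The sources used here do not give its log base, normalisation or smoothing.

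From the intensities, log2(Cy5/Cy3) was taken and the median of the 142569 kept probes (81.6% of 174638) was subtracted, with no loess or quantile step. Control spots (5827) and 57 flagged probes were left out. Among member probes the input was well above background at 70 untreated and 65 with thymidine, and the precipitate at 61 on each, of 72. Member signals were a median of 13.3 and 15.7 times background for the input and 8.34 and 7.69 for the precipitate. A tiled region had at least 3 kept probes with starts under 1000 bp apart. With 1 array per group no model could be tested. Region counting, but not probe counting, was tested on simulated data. The named probes are, per gene, those with the highest and lowest mean ratio and the largest difference, and others were chosen after their values were seen. Another 29 pathway genes on a list were not analysed here, because the files name no genes and the RefSeq table is of another build. The members and lists were chosen with earlier results of these data known. Alternatives were a stricter and no dim filter, normexp (offset 50), loess, quantile normalisation, removal of the level trend (running median of 2001 probes), the authors' table, the precipitate channel alone, leaving out each gene's most extreme probe, and centring on all genomic probes, the last added after the data were seen. Software was Python 3.11.15, numpy 2.4.6, pandas 2.3.3, R 4.3.3 and limma 3.58.1.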

Additional observations from a re-analysis of the deposited data

How the results depend on the processing

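Under the alternatives, 75 median differences (by gene and over all members) moved by less than the spread between control spots and 4 by more. Of the median ratios per gene and array, 75 moved by less and 37 by more than the spread between control spots on that array. That spread was an SD of 0.10 untreated and 0.11 with thymidine. Some of the 37 came from the precipitate channel alone, which sets a signal against a ratio and so cannot show how steady the ratio is. Probe counts stayed within 1.5 times, that ratio included, in 9 comparisons and left it in 9, and the tile counts were 0 in all 18. With the authors' table the Tk1 median was -0.30; its median over all probes was -0.05 against 0.07, and relative to that shift Tk1 was -0.26 against -0.16. With the precipitate alone the Rrm2 median was -0.059 and the Dut median 0.089, and without a filter on dim probes the Dut median was 0.41. The 9 member probes at least 0.5 higher became 15 without the filter, 5 each with normexp, quantile normalisation and the level trend removed, and 0 with the authors' table and with the precipitate alone. The 3 lower probes became 5 with quantile normalisation and with the level trend removed, and 0 with the precipitate alone. Over all kept probes the shares higher and lower were 11.0% and 4.43%, and became 14.0% and 4.44% without the filter, 1.28% and 1.87% with the precipitate alone, 6.14% and 6.60% with quantile normalisation, 6.06% and 6.47% with the trend removed, 2.93% and 3.18% with normexp and 0.849% and 2.70% in the authors' table. The cause was not tested. No replicate could be left out, with 1 array per group. No paired analysis was possible because each group has 1 array. Signal over background limits the 5 kept probes with dim precipitate and the 7 with dim input.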

Other observations

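The member probes left out for dim input are given here as values, which the dim signals make uncertain. The first Tyms probe, at 30399677, read -1.55 untreated and -0.65 with thymidine. The last Samhd1 probe, at 156961963, read -2.11 and -1.56, and a Dut probe at 125073264 read 0.10 and 0.61. At these 3 probes the input was well above background on the untreated array only, and of the 3 only the Dut probe had precipitate well above background on both arrays. The other Dut probes left out are given above. For the Rrm2 probe at 25393538 and the Tymp probe at 89210444 neither channel was well above background on either array, and no ratio is given.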
